A study of Mus musculus with 2 samples.

Results

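The genes described here are 10 mouse genes known for aganglionosis of the gut, the absence of enteric ganglia seen in Hirschsprung disease, that stand outside the RET receptor and its ligands: Zeb2, Ednrb, Edn3, Ece1, Nrg1, Nrg3, L1cam, Pax3, Ihh and Tcf4. They were taken by name from 21887 protein-coding genes, and for each one all H3K4me3 peaks over the gene model and 1 kb to each side were collected, peaks inside the gene included. The mark, trimethylated lysine 4 of histone H3, is found mainly at active and poised promoters. It was mapped by chromatin immunoprecipitation and sequencing in 1 library of sorted NOS1+ enteric neurons of the mouse small intestine, the neurons that relax gut muscle by releasing nitric oxide. The series also holds 1 input library of the same sorted neurons, of which no file was used here. Strain, age, sex, number of animals and the means of sorting were not given in the sources used here. With 1 immunoprecipitated library no difference could be tested, and the values below describe that library.

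Enteric neurons and glia arise from neural crest cells that enter the gut and migrate along it, and loss of genes that guide their survival, migration or differentiation leaves the far gut without ganglia. Endothelin signalling keeps the migrating cells undifferentiated: ECE1 cleaves the precursor of endothelin-3, which the Edn3 gene encodes and gut mesenchyme secretes, and the receptor encoded by Ednrb receives it on the crest cells. ZEB2 is a zinc finger repressor needed for crest formation, TCF4 a class I basic helix-loop-helix factor that pairs with neurogenic partners, and PAX3 a paired-box factor that acts with SOX10 upstream of Ret in the early crest. NRG1 and NRG3 are neuregulins, ligands of the ErbB receptors that support glia, L1CAM is an adhesion molecule of migrating crest cells and growing axons, and IHH is a hedgehog ligand secreted by the gut epithelium.

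The start windows of 6 of these genes are printed because they carry the main contrasts of the results: wide and narrow peaks, starts with and without a peak, and sequences rich and poor in CG dinucleotides. Each window spans 250 bases before a RefSeq start and 50 bases from it (GRCm38.p6, the coordinates of mm10), is written 5′ to 3′ on the strand of the gene, and has every CG in capitals. The Zeb2 windows lie at chr2:45117393-45117692 and chr2:45113230-45113529 on the minus strand, that of Ednrb at chr14:103843652-103843951 on the minus strand and that of Edn3 at chr2:174760369-174760668 on the plus strand. The Ece1 windows lie at chr4:137861987-137862286, chr4:137913308-137913607 and chr4:137920543-137920842 on the plus strand. The windows of Nrg3, at chr14:39473039-39473338, and Ihh, at chr1:74951623-74951922, are on the minus strand.
Zeb2, outer start: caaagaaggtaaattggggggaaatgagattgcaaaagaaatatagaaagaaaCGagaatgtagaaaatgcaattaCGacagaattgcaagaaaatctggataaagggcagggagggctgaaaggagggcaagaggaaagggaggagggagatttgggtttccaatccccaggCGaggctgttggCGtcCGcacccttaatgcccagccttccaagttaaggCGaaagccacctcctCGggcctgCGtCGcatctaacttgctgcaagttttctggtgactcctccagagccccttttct
Zeb2, inner start: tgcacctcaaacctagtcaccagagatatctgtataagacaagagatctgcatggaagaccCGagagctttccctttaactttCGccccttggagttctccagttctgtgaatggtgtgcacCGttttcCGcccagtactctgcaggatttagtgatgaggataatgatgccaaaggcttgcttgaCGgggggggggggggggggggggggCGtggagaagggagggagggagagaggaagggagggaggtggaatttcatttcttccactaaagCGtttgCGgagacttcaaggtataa
Ednrb: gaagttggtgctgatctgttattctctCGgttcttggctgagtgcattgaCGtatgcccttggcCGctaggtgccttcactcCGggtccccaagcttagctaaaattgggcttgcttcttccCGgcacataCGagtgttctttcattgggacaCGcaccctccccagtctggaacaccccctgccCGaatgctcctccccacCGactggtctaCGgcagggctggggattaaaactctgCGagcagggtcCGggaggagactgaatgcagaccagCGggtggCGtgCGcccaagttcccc
Edn3: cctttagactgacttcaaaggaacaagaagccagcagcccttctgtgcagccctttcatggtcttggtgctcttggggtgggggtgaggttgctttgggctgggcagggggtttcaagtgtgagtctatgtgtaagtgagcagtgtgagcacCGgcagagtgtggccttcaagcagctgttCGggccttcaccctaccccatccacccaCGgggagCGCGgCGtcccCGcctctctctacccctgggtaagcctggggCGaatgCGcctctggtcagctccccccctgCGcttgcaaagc
Ece1, outer start: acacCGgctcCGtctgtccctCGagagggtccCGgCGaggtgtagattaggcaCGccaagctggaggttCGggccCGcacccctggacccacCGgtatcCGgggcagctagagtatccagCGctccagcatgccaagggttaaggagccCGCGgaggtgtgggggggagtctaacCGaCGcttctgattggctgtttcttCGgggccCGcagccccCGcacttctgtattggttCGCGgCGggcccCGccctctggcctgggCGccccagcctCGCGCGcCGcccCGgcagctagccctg
Ece1, middle start: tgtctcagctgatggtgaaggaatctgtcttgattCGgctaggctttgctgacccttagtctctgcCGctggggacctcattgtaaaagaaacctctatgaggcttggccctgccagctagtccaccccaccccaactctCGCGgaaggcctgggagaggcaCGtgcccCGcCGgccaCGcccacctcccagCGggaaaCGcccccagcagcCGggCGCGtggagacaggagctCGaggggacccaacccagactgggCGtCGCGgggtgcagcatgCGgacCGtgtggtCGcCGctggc
Ece1, innermost start: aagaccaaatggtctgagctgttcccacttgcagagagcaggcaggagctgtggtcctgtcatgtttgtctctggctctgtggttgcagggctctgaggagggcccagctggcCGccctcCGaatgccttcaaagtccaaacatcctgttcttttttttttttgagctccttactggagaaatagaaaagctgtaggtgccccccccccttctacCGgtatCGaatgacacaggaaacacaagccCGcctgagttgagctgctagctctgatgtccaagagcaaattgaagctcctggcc
Nrg3: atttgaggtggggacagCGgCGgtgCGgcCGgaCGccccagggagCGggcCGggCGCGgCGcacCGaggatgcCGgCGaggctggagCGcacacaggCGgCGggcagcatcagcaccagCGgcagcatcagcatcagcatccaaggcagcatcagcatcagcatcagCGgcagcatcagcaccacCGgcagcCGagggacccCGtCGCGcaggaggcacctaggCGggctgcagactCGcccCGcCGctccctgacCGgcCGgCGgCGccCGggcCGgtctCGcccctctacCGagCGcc
Ihh: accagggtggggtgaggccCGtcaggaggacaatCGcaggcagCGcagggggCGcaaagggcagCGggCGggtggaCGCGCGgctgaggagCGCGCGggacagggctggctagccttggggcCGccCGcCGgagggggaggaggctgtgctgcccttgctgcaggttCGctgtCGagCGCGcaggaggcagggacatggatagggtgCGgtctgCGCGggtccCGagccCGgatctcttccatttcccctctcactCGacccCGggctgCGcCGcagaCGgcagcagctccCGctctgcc

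The list held 29924 peaks with scores up to 702.6 (median 35.7), and the depth behind them is unknown. All 10 genes had a peak, where 67% of all protein-coding genes did, and 9 of the 10 had a peak within 1 kb of an end of the gene model, where 61.4% of all genes did. These counts rested partly on weak peaks: in the better-scored 50% of the peaks 6 of the 10 genes had a peak and 5 had one at an end, where 57.8% and 53.1% of all genes did, and in the best-scored 25% 3 had a peak and 2 had one at an end, where 37.3% and 34.5% of all genes did. Nrg1 was the exception at the ends and had peaks inside only, as had 5.64% of all genes. The 10 genes held 47 peaks, 13 at an end and 34 inside. When peaks closer than 1 kb were merged into a region, 23 regions remained. The median of the widest peak per gene was 2130.5 bp over the 10 genes and 1515 bp over all 14665 genes with a peak, and the median of the widest merged region was 2362.5 bp over the 10 genes and 1816 bp over all genes with a peak. The median of the highest score ran the other way, 49.9 over the 10 genes and 152.6 over all genes with a peak, and 2 of the 10, Tcf4 and Ece1, stood above that median. By merged width Zeb2 and Tcf4 lay among the widest 1% of genes with a peak. By score Pax3 and Ihh lay among the lowest 2%, and none of the 10 stood near the top: 29.3% of genes with a peak scored at or above Tcf4, the highest of the set.

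**Figure D1:**
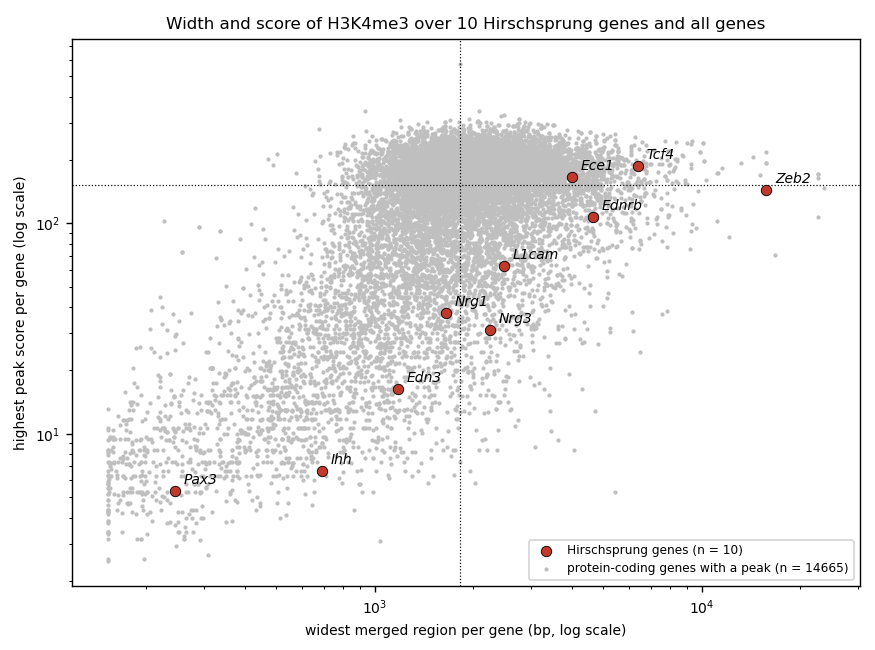
Widest merged H3K4me3 region per gene (x axis, bp, log scale) against the highest peak score per gene (y axis, log scale) for the 10 Hirschsprung genes (red) and all 14665 protein-coding genes with a peak (grey), with dotted lines at the medians of all genes, 1816 bp and a score of 152.6. Zeb2, at 15755 bp, lies at the right edge of the cloud and Pax3, at 245 bp, at its lower left.

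Zeb2, the zinc finger repressor, carried the widest domain of the 10. Its gene model (chromosome 2, 44983512 to 45117442) spans 133.9 kb, and all 9 of its peaks lay near the upper end, where transcription starts. The widest peak, of 6693 bp from 45107253 to 45113945, had a score of 143.8 and ranked 14 by width among all genes with a peak. It lay inside the gene and covered the 3 inner RefSeq starts, at 4163, 4189 and 7165 bp into the model, and it ran over the long noncoding RNA gene Zeb2os, 95.2% of whose model (45111138 to 45114087) lay under it. A separate peak of 2655 bp (score 101.3) covered the outermost start. The other 7 peaks were narrow, between 190 and 829 bp, with scores from 5.94 to 20.5. All 9, with a 10th narrow peak 1455 bp beyond the model, joined into a merged region of 15755 bp (45103306 to 45119060), rank 7 of all genes with a peak. Merged regions of 9 or more peaks were found at 0.0955% of genes with a peak. By merged width the next gene above Zeb2 was Meis2 (16670 bp in 11 peaks), in 1 library and by width alone. The merged width rested on the narrow fragments: it was 10255 bp when only peaks closer than 500 bp were joined, 10640 bp with peaks of at least 300 bp, and 6693 bp in the better-scored 50% of the peaks.

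Tcf4, the class I basic helix-loop-helix gene, had the most peaks, 14 over a model of 344.5 kb (chromosome 18, 69343429 to 69687967), a number that 0.170% of genes with a peak reached. Its highest score, 186.7, belonged to a peak of 3564 bp that began 485 bp inside the lower end of the model. Its widest peak, 4472 bp (score 105.7), lay 248781 bp into the gene, and with 3 narrow neighbours it formed a merged region of 6356 bp, rank 144 of all genes with a peak. At the lower end 3 peaks made up a second region of 6027 bp. Tcf4 therefore held 2 wide domains of like width, far apart in 1 gene. Between them lay 6 peaks of 295 to 1145 bp in 5 regions, with scores from 5.61 to 56.0, and 1 weak peak of 226 bp stood 21096 bp before the upper end. By merged width its next genes were Borcs6 (6379 bp) above and Map3k11 (6353 bp) below. In the best-scored 25% of the peaks only that of 3564 bp was left.

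Of the 3 endothelin genes of the set, Ednrb and Ece1 had wide peaks and Edn3 narrow ones. Ednrb, the endothelin receptor gene (chromosome 14, 103814615 to 103844508), had a peak of 2821 bp (score 107.6) over its listed start, which reached 1951 bp into the gene and 869 bp before the start. Another 3 peaks of 157 to 254 bp, with scores from 3.11 to 8.38, joined it into a region of 4651 bp, a width that 3.29% of genes with a peak reached. Next to it in merged width stood Pou3f1 (4652 bp) above and Irf2bpl (4651 bp) below. Without the narrow fragments, with peaks of at least 300 bp or in the better-scored 50%, the region was 2821 bp. The model lies within that of the long noncoding RNA gene Gm35197 (103719026 to 103867713), none of whose ends lay within 1 kb of these peaks.

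Ece1, which encodes the endothelin-converting enzyme (chromosome 4, 137862237 to 137965229), had a peak of 3031 bp (score 165.9) over its 2 outer starts and 2 narrow peaks of 273 and 390 bp behind it, a region of 4006 bp in all. A separate peak of 778 bp (score 44.0) lay over the middle start, 51.3 kb into the gene. The innermost listed start, 58.6 kb into the gene, had no peak. These 3 windows can be compared in the sequences above: the outer window holds 28 CG, the middle window 21 and the innermost window 5. Edn3, the ligand gene (chromosome 2, 174760619 to 174784042), had a peak of 642 bp (score 16.3) over its start and another of 322 bp (score 6.81) behind it. They formed a region of 1180 bp, a width that 80.3% of genes with a peak reached.

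The neuregulin genes are among the longest in the genome, and their highest scores lay well under the median of genes with a peak. Nrg1 (chromosome 8, 31807452 to 32891609, 1084 kb) held 7 peaks in 4 regions, all inside. The widest single peak, 1639 bp (score 37.3), lay 201019 bp into the model at an end of the long noncoding RNA gene Gm26578. The widest merged region, 1650 bp in 3 peaks with scores up to 17.6, lay beside an end of Gm33223, and a peak of 750 bp (score 15.1), 6706 bp before the upper end, lay beside an end of Gm51527. The region of 805 bp that began 485367 bp into the model, with a highest score of 35.4, had no end of another gene within 1 kb. Inside peaks were as dense in Nrg1, at 0.647 per 100 kb, as over all genes of 100 kb or more, at 0.620 per 100 kb. Nrg3 (chromosome 14, 38365102 to 39473235, 1108 kb) had 1 peak, of 2246 bp (score 31.3), over its start. It reached 1195 bp into the gene and 1050 bp before the start, where it also covered a start of the long noncoding RNA gene LOC432842 on the other strand. Of the 59 protein-coding genes of at least 1 Mb, 12, Nrg3 among them, had no peak inside, and the median over the 59 was 3 peaks.

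L1cam, the adhesion gene on the X chromosome (73853778 to 73880838), had a peak of 2015 bp (score 62.5) and a neighbour of 404 bp (score 34.4), which together formed a region of 2479 bp over both listed starts. The gap between these peaks fell just before the starts. Another peak of 587 bp (score 12.7) lay 3753 bp before the upper end, inside the gene, and came into the region, then 4811 bp wide, when peaks closer than 2 kb were joined.

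Pax3 and Ihh, the early crest factor and the epithelial ligand, had the weakest marks. Pax3 (chromosome 1, 78101267 to 78197136) had a single peak of 245 bp (score 5.36) across the upper end of its model. Ihh (chromosome 1, 74945315 to 74951672) had a peak of 688 bp (score 6.48) over its start and another of 194 bp (score 6.64) inside. Edn3, Pax3 and Ihh were the 3 of the 10 genes whose widest peak stayed under 700 bp, as it did at 11.1% of genes with a peak, and Pax3 and Ihh were the 2 whose scores all stayed under 10, as they did at 3.81%. None of the 3 kept a peak in the better-scored 50%.

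**Figure D2:**
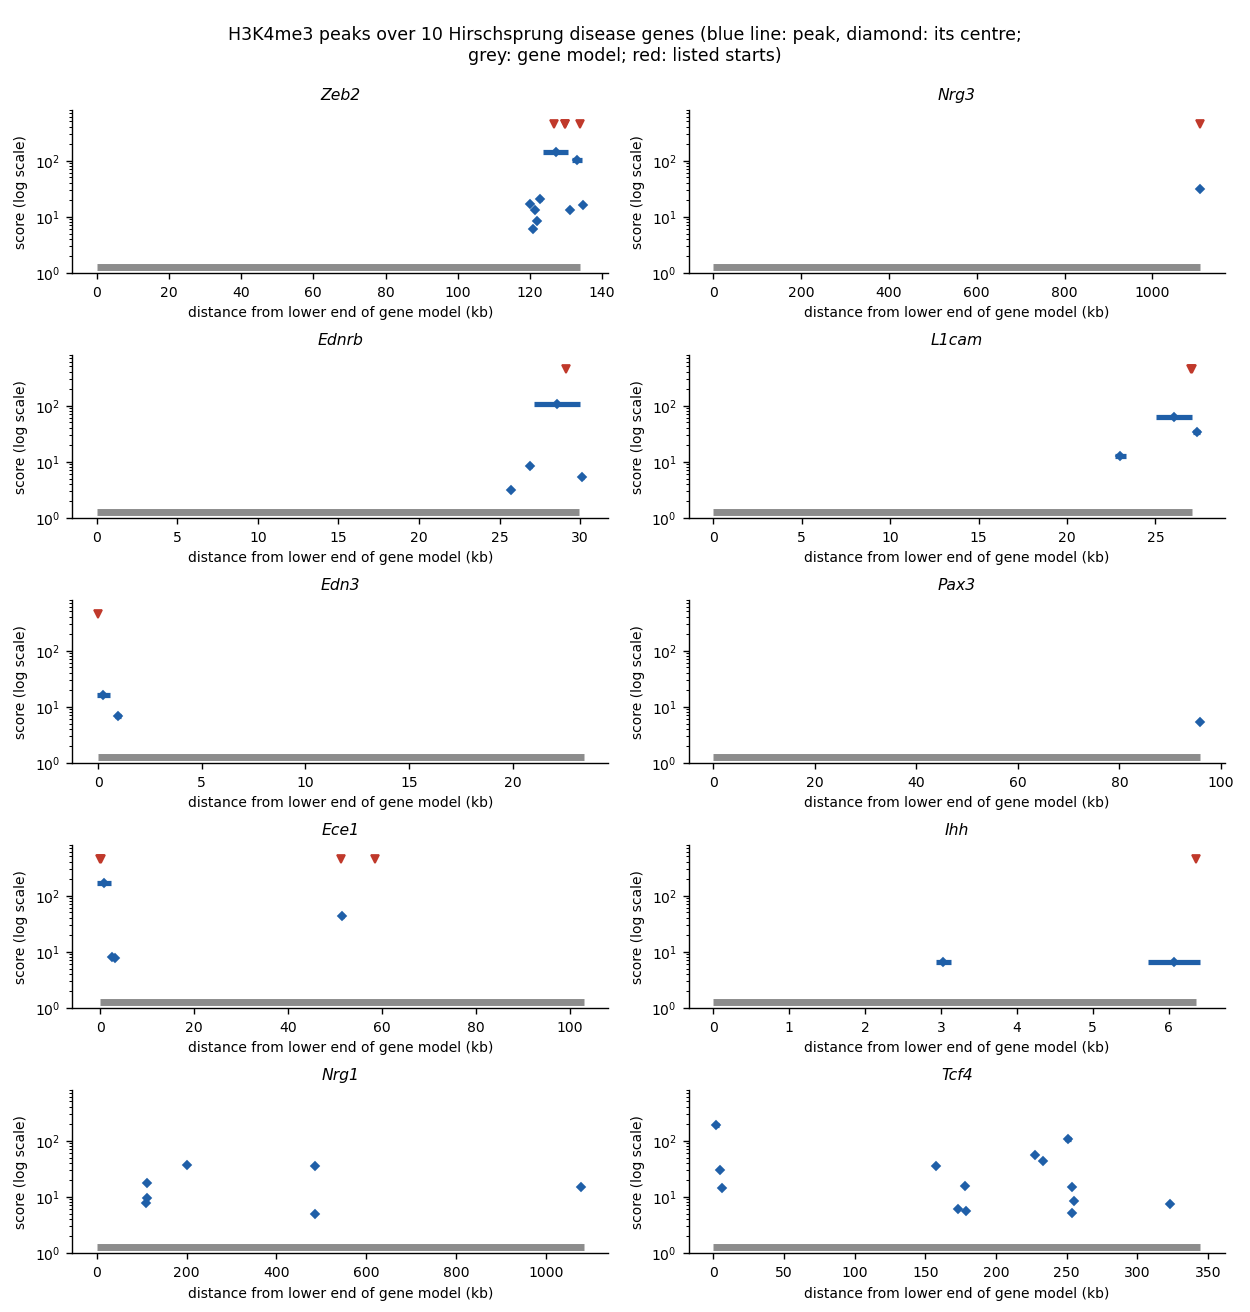
H3K4me3 peaks over the 10 genes, with the distance from the lower end of the gene model in kb on the x axis and the peak score on a log y axis. Each blue line is a peak drawn to its width with a diamond at its centre, the grey line is the gene model and red triangles are listed starts, so that the cluster of 9 peaks at the upper end of Zeb2, the 14 peaks of Tcf4 and the single peaks of Nrg3 and Pax3 can be compared.

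Peaks inside genes are given here beside the length of the gene models. Of the 10 genes 7 had a peak inside the model away from its ends, where 24% of all protein-coding genes did, but 5 of the 10 models are at least 100 kb long. Of these 5, the 4 genes Zeb2, Ece1, Nrg1 and Tcf4 had a peak inside, where 58.6% of all genes of that length did. All 5 had a peak somewhere over the model, beside 91.6% of genes of that length, and 4 of them, all but Nrg1, had a peak at an end, beside 78%. The widest peak lay inside rather than at an end at Zeb2, Nrg1 and Tcf4, as it did at 13.1% of genes with a peak. Inside peaks per 100 kb numbered 5.31 in Zeb2, 3.80 in Tcf4, 2.97 in Ece1, 0.647 in Nrg1 and 0 in Nrg3. Over all genes of at least 100 kb the pooled value was 0.620, in which the longest genes weigh most. The inside peaks of Zeb2, Ece1 and Ednrb were not separate from a start. All 7 of Zeb2 lay in the merged region at its start end, the widest of them over 3 listed starts. In Ece1 the peaks of 273 and 390 bp merged with the peak over the outer starts, and that of 778 bp lay over the middle start. Both inside peaks of Ednrb merged with its start peak. Tcf4 and Nrg1, with 13 and 7 inside peaks, have no listed start, so whether those peaks lie over starts could not be told.

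RefSeq starts were listed for 7 of the 10 genes, all but Nrg1, Pax3 and Tcf4. All 7 had a peak over at least 1 start window, where 60.8% of 17492 protein-coding genes with a listed start did. In the better-scored 50% of the peaks 4 of the 7 did, beside 54.5% of all, and in the best-scored 25% 2 of the 7, beside 35.6%. Of their 14 windows 13 had a peak, where 59.6% of all 21263 windows did, and the innermost Ece1 window was the exception. The 14 windows held a median of 20 CG, beside 13 over all windows, and windows with more CG had a peak more often, as given below. Zeb2 had a peak over each of its 4 starts, as had 26% of the 1500 genes with starts at least 1 kb apart. At 12 of the 13 marked starts the peak reached further into the gene than before it, the innermost Zeb2 start being the exception. Starts that share a peak repeat it in these counts: 3 in Zeb2, 2 in Ece1 and 2 in L1cam. Over the outermost start the peak reached 2191 bp into Zeb2 and 463 bp before it and 2249 bp into Ece1 and 781 bp before it. At L1cam the wider peak reached 2003 bp into the gene and stopped 11 bp before the start, but its neighbour of 404 bp lies over the same windows, and the merged region reached 475 bp before the start. Edn3 and Ihh had the same lean at smaller size, with 575 and 630 bp into the gene and 66 and 57 bp before it. Over 8390 genes with 1 listed start and a peak, the median reach was 1007.5 bp into the gene and 442 bp before it, and 81.5% had the longer reach into the gene. With merged regions in place of single peaks, an alternative chosen after seeing the data, the longer reach was again into the gene at 12 of the 13 starts, and at 80.2% of the genes with 1 listed start.

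**Figure D3:**
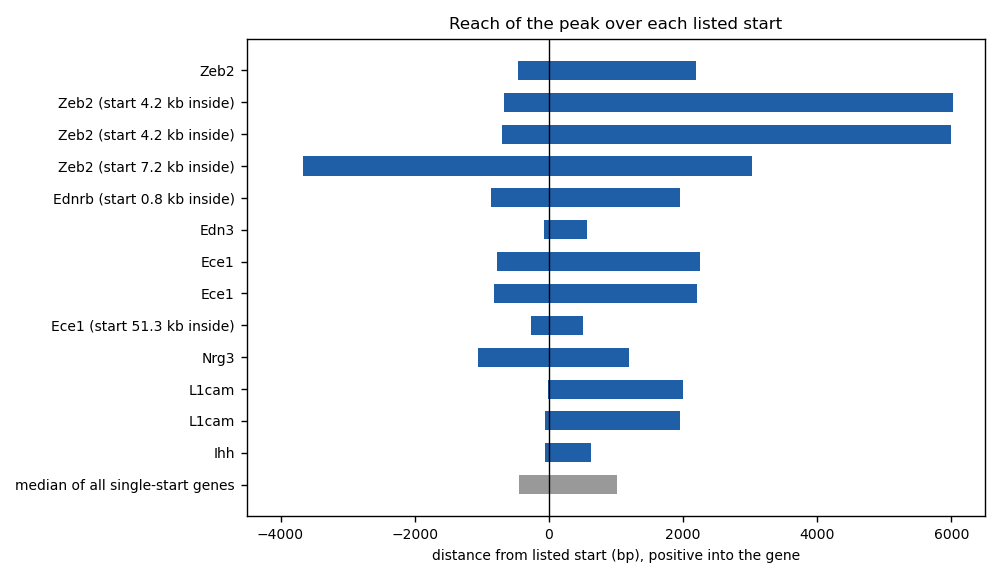
Extent of the peak over each of the 13 listed starts with a peak, in bp from the start on the x axis, positive into the gene. The grey bar at the bottom joins the median reaches over 8390 genes with 1 start, 442 bp before and 1007.5 bp into the gene, and the bars of the inner Zeb2 starts, up to 6026 bp into the gene, are the longest.

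The genes also differed in the CG content of their start windows. Windows with more CG had a peak more often: 5.9% of all windows with 0 to 4 CG, 36.1% of those with 5 to 9, 79.2% of those with 10 to 14, 90.8% of those with 15 to 19 and 96.8% of those with 20 or more. The outer and inner Zeb2 windows printed above hold 9 and 8 CG, in the class where 36.1% had a peak, yet their peaks were wide for that class, whose marked windows had a median peak width of 1164 bp. A width of 6693 bp was reached by 0.175% of the 1140 marked windows of that class, which are the 2 overlapping Zeb2 windows under this 1 peak and no others, and a width of 2655 bp by 6.49%. The Ece1 window with no peak, with 5 CG, is of the same class. The peak of 6693 bp also covered the innermost Zeb2 start, whose window, not printed, holds 19 CG. In the class of that window 90.8% had a peak, so this peak does not belong to CG-poor windows alone. Nrg3 and Ihh stood at the other side: their windows hold 36 and 30 CG, and a peak was the rule in that class. Their scores of 31.3 and 6.48 lay low beside its median of 167.8, with 94.9% and 99.5% of its marked windows at or above them. In the same class the middle Ece1 window and the L1cam windows were also under the median, at 44.0 and 62.5, with 92.5% and 88.8% at or above them. The outer Ece1 windows, at 165.9, lay near it. Ednrb, with 15 CG, had a score of 107.6 beside a class median of 151.5, and Edn3, with 10 CG, one of 16.3 beside 126.5.

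**Figure D4:**
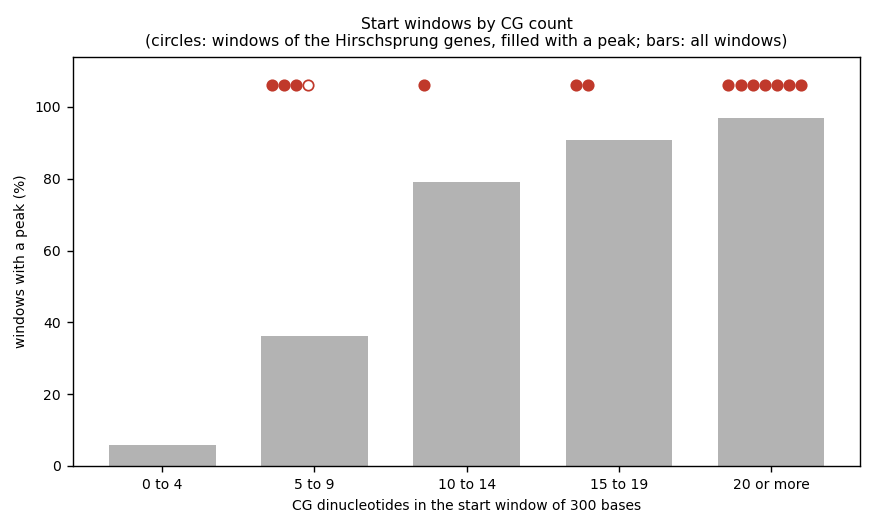
Percentage of start windows of protein-coding genes with a peak (bars, y axis) by the number of CG in the window of 300 bases (x axis), with the 14 windows of the Hirschsprung genes as circles above the bars, filled where there is a peak. The share goes from 5.9% to 96.8% across the classes, and the only open circle, an Ece1 window, stands beside 3 filled Zeb2 circles in the class of 5 to 9 CG.

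Motifs of factors encoded by the set were looked up in the same windows on both strands. The E-box CANNTG, which class I basic helix-loop-helix factors such as TCF4 bind, was found in 6 of the 14 windows, at Edn3, Ece1 and L1cam, and in 69% of all windows of protein-coding genes. CACCTG, the E-box form that ZEB factors bind and a case of CANNTG, was in 0 of the 14 windows and in 19.7% of all windows. Some of the 14 windows overlap, at Zeb2, Ece1 and L1cam, so the same stretch of sequence is counted more than once there. The letters describe these windows of 300 bases and no others.

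The partners of these genes were described by lists chosen with earlier results of these data known. Their counts are to be read beside the 67% of all protein-coding genes with a peak and the 61.4% with a peak at an end. In the endothelin system 6 of 9 genes (66.7%) had a peak, all at an end, a share like that of all genes. Beside the 3 genes described, Ednra, the other endothelin receptor, had a merged region of 1767 bp with a highest score of 51.1, the ligand gene Edn1 one of 2072 bp with 29.7 and the enzyme gene Ece2 one of 841 bp with 32.9. Edn2, Ecel1 and Kel had no peak. Among the 6 Ednrb had the widest region, Ece2 the narrowest and Edn3 the lowest score.

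In the neuregulin and ErbB system 11 of 12 genes (91.7%) had a peak, all but Nrg4. The receptor gene Erbb3, which partners with ERBB2 in crest and glia, had a region of 4729 bp with a highest score of 129.8 in it. Erbb4, the neuronal ErbB receptor gene, had 3388 bp with 54.9, Erbb2 had 2108 bp with 202.3 and Egfr 2091 bp with 88.3. Among the ligands Nrg2 had 2053 bp with 74.3 and Hbegf 2279 bp with 109.1, and Nrg1 and Nrg3 had the lowest 2 scores of the 11. Bace1, the protease that processes neuregulins, had 2276 bp with 185.8.

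All 6 genes of the Zeb and Snail list had a peak at an end. Zeb1, the paralog of Zeb2, had a region of 3553 bp with a highest score of 190.3, so Zeb2 had the wider mark and the lower score of the pair. The corepressor gene Ctbp2 had 3713 bp with 198.4 and Snai1, another zinc finger repressor gene, 3041 bp with 33.1. All 8 class I helix-loop-helix and Id genes also had a peak at an end, with Id2, an inhibitor of these factors at 4532 bp (score 124.7). The paralogs of Tcf4 had narrower regions, 2814 bp at Tcf12 and 1796 bp at Tcf3.

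Of the L1 family and its partners 7 of 8 genes (87.5%) had a peak, all but Cntn2. L1cam had 2479 bp with a highest score of 62.5, against 4503 bp with 126.0 at its close homolog Chl1, 5784 bp with 112.6 at the semaphorin receptor gene Nrp1 and 4543 bp with 77.4 at the ankyrin gene Ank3. Nrcam had 2458 bp and Nfasc 927 bp. In the hedgehog pathway 10 of 11 genes (90.9%) had a peak, all but Shh. The receptor gene Ptch1 had 6072 bp (score 179.3), Dhh, the hedgehog ligand of Schwann cells, 4787 bp with 51.2 and the transcription factor gene Gli3 3300 bp with 161.0. The inhibitor gene Sufu had 3749 bp with 187.6, a score from a peak more than 1 kb beyond its model. Over the Sufu model and 1 kb to each side the highest score was 139. Ihh had the lowest score of the 10. Of the 9 Pax genes 5 (55.6%) had a peak and Pax3 was the only one of them with a peak at an end. Its 245 bp stood against wider regions inside Pax6 (1534 bp), Pax9 (1489 bp) and Pax2 (1435 bp), and no score in the family passed 18.6. Some of these inside peaks lay over starts: 2 of 3 listed starts had a peak at Pax2 and 1 of 1 at Pax9, while Pax3 has no listed start.

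**Figure D5:**
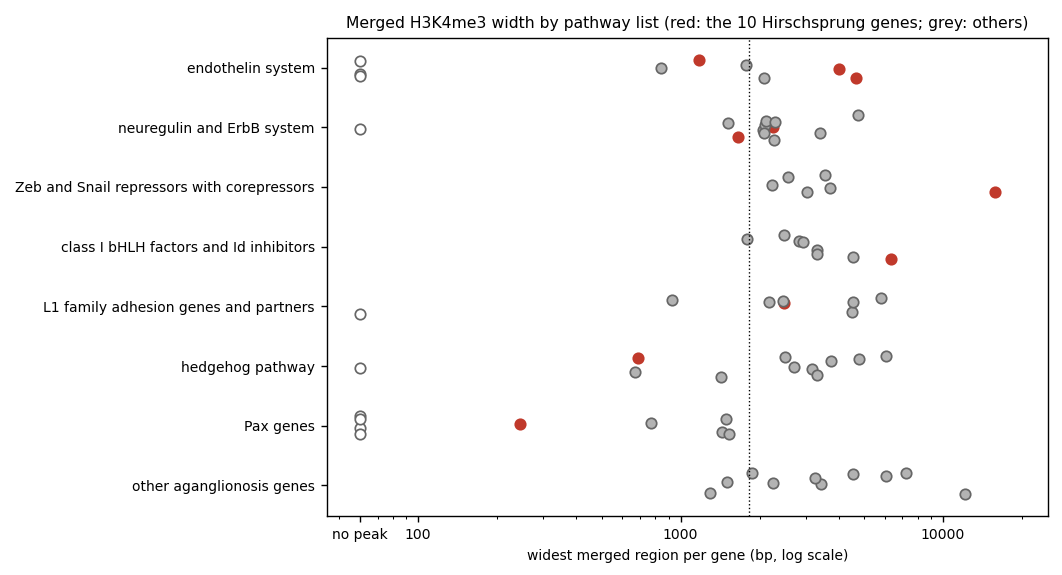
Widest merged H3K4me3 region per gene (x axis, bp, log scale) in the 8 pathway lists, with the 10 Hirschsprung genes in red, other genes in grey and genes with no peak as open circles at the left. The dotted line is the median over all genes with a peak, 1816 bp, and the red point at 15755 bp is Zeb2.

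Beside RET and the other aganglionosis genes, the 10 genes covered a wider range of scores. Their highest scores ran between 5.36 and 186.7, against 50.8 to 211.4 over the second list. All 10 genes of the second list had a peak at an end. The median merged width was 2362.5 bp over the 10 Hirschsprung genes and 3340.5 bp over the second list. For the widest single peak the order was the other way, with medians of 2130.5 and 1901.5 bp. Sox10, a transcription factor gene of the crest, had 12133 bp, the GDNF receptor gene Gfra1 6056 bp and its ligand gene Gdnf 4548 bp, and Ret itself had 3439 bp (score 59.2).

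Peaks also lay over marker genes of other cells of the gut wall. All 8 neuronal markers had a peak (highest scores per gene from 11.6 to 102.3), as had all 8 markers each of enteric glia (26.9 to 194.7), smooth muscle (8.38 to 156.4) and interstitial cells and fibroblasts (9.48 to 154.9). Of the 8 markers each, 7 had a peak for epithelium (7.68 to 32.9, with Vil1 at none), 7 for endothelium (2.64 to 91.5, with Cdh5 at none) and 3 for leukocytes (7.18 to 164.5, with Cd3e, Itgam, Adgre1, Cx3cr1 and Itgb2 at none). Over a listed start a peak was found at 6 of 6 neuronal markers, 4 of 5 of glia, 3 of 5 of smooth muscle, 5 of 6 of interstitial cells and fibroblasts, 1 of 5 of epithelium, 3 of 5 of endothelium and 0 of 6 of leukocytes, where 60.8% of genes with a listed start had one, so the leukocyte scores belong to peaks away from the listed starts of those genes. Ednrb, Zeb2 and Erbb3 are also used by glia, Edn3 by mesenchyme and Ihh by epithelium, and the part of such cells in their peaks was not tested.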

How the data were processed

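H3K4me3 chromatin immunoprecipitation and input libraries were sequenced from sorted NOS1+ neurons, 1 library each, and 1 file, the peak list of the immunoprecipitate, was used. Each peak in the deposited list has a position and a score. MACS2 made the calls on paired-end reads, per the file headers. BWA, Picard, MACS2 and mm10 are named in the submitters' processing notes, but versions, threshold, duplicate handling and score scale were not given in the sources used here. For this reason the score only ranks and describes peaks in the list. Without read counts the depth is unknown. Weak peaks are the first to be lost or split at low depth.

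Gene models and start windows came from RefSeq on GRCm38.p6 (21 chromosomes). A peak counted with 1 bp of overlap. Start windows had a peak in 59.6% of cases, and in 3.02% after a move of 100 kb. Peaks closer than 1 kb were merged. Peaks were assigned in Python 3.11.15 with pandas 2.3.3, with the assignment tested on simulated data.

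All 10 genes are named, along with up to 4 genes per list in order of merged width and direct partners or paralogs. For the 3 genes with the widest merged regions, the neighbours in that order are named. Other genes, such as those with no peak or the lowest values of their list, were named after their values were seen. A few genes that this rule takes are counted but not reported here by name. The genes and lists were chosen with earlier results of these data known. Alternatives were the best-scored 50% and 25% of peaks, peaks of at least 300 bp, 50% of the peak inside the window, windows of 500 and 2500 bp, merging at 500 bp and 2 kb, and the start base or 1 kb around it.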

Additional observations from a re-analysis of the deposited data

How the results depend on the processing

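No paired analysis was possible because there is 1 library of each kind and no test. Of the 10 genes, 6 had a peak in the better-scored 50% of peaks (Zeb2, Ece1, Nrg1, Ednrb, Tcf4 and L1cam) and 3 in the best-scored 25% (Zeb2, Ece1 and Tcf4), while 57.8% and 37.3% of all protein-coding genes did. Those with a peak at an end numbered 5 and 2 of 10 (53.1% and 34.5% of all genes), and those with a peak over a start 4 and 2 of 7 (54.5% and 35.6% of genes with a listed start). The median widest peak was 2926 bp in the higher 50%, 3564 bp in the highest 25% and 2246 bp with peaks of at least 300 bp, and the median merged region 2926, 3564 and 2479 bp in these settings and 3126 bp with merging at 2 kb. The median of the highest score was 125.7 in the higher 50%, 165.9 in the highest 25% and 62.5 with peaks of at least 300 bp. In each of these settings the median widths stayed above, and the median scores below, those of all genes with a peak left. These medians cover only the genes that kept a peak. Edn3, Pax3 and Ihh, with the narrowest peaks, and Nrg3, with a peak of 2246 bp, kept none in the 2 score settings. Ednrb, with a peak of 2821 bp, Nrg1 and L1cam kept none in the highest 25%. The larger widths in these settings therefore do not describe all 10 genes. The other alternatives left these counts within 1.5 times and these medians as reported. Of 176 recomputed values of single genes 131 did not change. The 176 leave out the widths of genes that had no peak left in a setting, so the count understates the changes. Depth is unknown, so a start with no peak is not shown to lack the mark.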

Other observations

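The surroundings of the 10 genes differed as well. Nrg3 stood alone: the nearest peaks beyond its ends lay 1229 kb below, beside Ghitm, and 1483 kb above. Nrg1 had its nearest outside peaks 619.2 kb below, beside Fut10, and 492.3 kb above. No other peak lay within 100 kb of either model, nor of Tcf4, whose nearest outside peaks were 144.5 kb below and 108.2 kb above. Edn3 had 2 peaks within 100 kb below and none within 100 kb above, where the next lay 357.4 kb away.

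Pax3, with its single weak peak, had a stronger one nearby. It lay 6.53 kb beyond the upper end of the model, was 520 bp wide with a score of 47.5 and had an end of the gene Gm33152 within 1 kb. On the other side the nearest peak was one beside Epha4, an ephrin receptor gene, 584.9 kb away, with 3929 bp and a score of 80.5. Near Ihh, 62.6 kb below, a peak of 446 bp (score 6.36) lay within 1 kb of an end of Fev, a transcription factor gene of serotonin-producing cells. L1cam lay in the densest surroundings, with 7 peaks within 100 kb below and 8 above, the nearest beside Pdzd4. Beyond the upper end of Ece1, at 27.6 kb, a peak of 3150 bp (score 187.8) was wider and higher than the peak at the Ece1 start itself. No outer end of a gene model lay within 1 kb of it, but starts inside other models were not looked up there. These neighbouring genes were named after their values were seen.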
